A study of Mus musculus with 12 samples.

Results

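Genes for voltage-gated calcium channels, voltage-gated sodium channels, hyperpolarization-activated cyclic nucleotide-gated (HCN) channels and transient receptor potential (TRP) channels were examined for H2A.Z at their promoters in mouse nucleus accumbens. The genes were chosen by symbol: Cacna1, Cacna2d, Cacnb and Cacng for calcium channels, Scn with the suffix a or b for sodium channels, Hcn for HCN channels, and Trpc, Trpv and Trpm. Of 65 such genes in the RefSeq table, 43 had in at least 1 of 4 peak lists a peak whose middle lay within 1000 bp of a transcription start site, here called a promoter peak. They were 43 of the 14993 genes with a promoter peak in any list, and they carried 118 promoter peaks in all. The 4 lists came from 12 samples, 3 per condition. SS animals received saline in both phases, SC animals saline and afterwards cocaine, CS animals cocaine and afterwards saline, and CC animals cocaine in both, and the labels call SC acute, CS withdrawal and CC challenge. The sources used here do not state strain, age, sex, dose or interval, nor if samples were pooled before peaks were called. With a single list per condition and nothing per sample, replicate error is unknown for all values below and differences between lists could not be tested.

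The histone variant H2A.Z sits in the nucleosomes flanking start sites. Calcium channels consist of a pore subunit (Cacna1), which opens on depolarization, with an alpha2delta subunit (Cacna2d) and a beta subunit (Cacnb) that set its trafficking and gating. Sodium channel pores (Scn with the suffix a) carry the action potential and are modulated by beta subunits (suffix b), HCN channels carry a pacemaker current on hyperpolarization, and TRP channels are cation channels with varied gates such as lipids, calcium, heat and cold. In medium spiny neurons, the main cell type of the accumbens, these channels shape excitability and calcium entry.

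The lists differed in size. The SS list held 24655 peaks and the SC list 23170, against 6417 in CS and 4827 in CC. Median promoter peak widths were 960, 895, 111 and 108 bp in the same order, and peaks with −log10 q of at least 5 made up 97.7%, 97.9%, 17.8% and 19.6% of the lists. Sequencing depth was not analysed here, and differences between SS or SC and CS or CC cannot be told apart from these differences in calling. Of 12 medium spiny neuron markers 11 had a promoter peak in SS, 9 in SC, none in CS and 1 in CC. Over all protein-coding genes the shares were 53.4%, 50.9%, 17.2% and 13.5%. SS also had peaks at 4 of 6 interneuron, 3 of 4 endothelial (Cldn5, Kdr and Flt1), 2 of 5 astrocyte, 1 of 5 oligodendrocyte and 1 of 2 precursor markers, at 1 of 5 muscle genes (Tnnt2) and at none of 4 microglial markers. Of these other markers, CS had a peak at 1 endothelial marker only and CC at none. A promoter peak does not measure expression.

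Channel genes carried promoter peaks in SS at 42 of 65 genes (64.6%), beside 53.4% of all 21900 protein-coding genes. In SC they did at 41 (63.1%, beside 50.9%), in CS at 8 (12.3%, beside 17.2%) and in CC at 6 (9.23%, beside 13.5%). By class, calcium channels had promoter peaks at 17 of 26 genes in SS and at 18 in SC, but at 2 in CS and 1 in CC. Sodium channels had them at 9 of 14 genes in SS and in SC, 1 in CS and none in CC. All 4 HCN genes had them in SS and in SC, none in CS and 1 in CC. TRP channels had them at 12 of 21 genes in SS and 10 in SC, and at 5 in CS and 4 in CC. TRP genes supplied 5 of the 8 channel genes of CS and 4 of the 6 of CC. With every list shortened to its 4827 peaks of highest fold enrichment, TRP counts were 3 (SS), 3 (SC), 4 (CS) and 4 (CC). This cut left 4463 of the 13585 SS promoter genes, while the CC list, 4827 peaks long, stayed whole. The change in the order of the TRP counts therefore cannot be told apart from the cut.

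**Figure D1:**
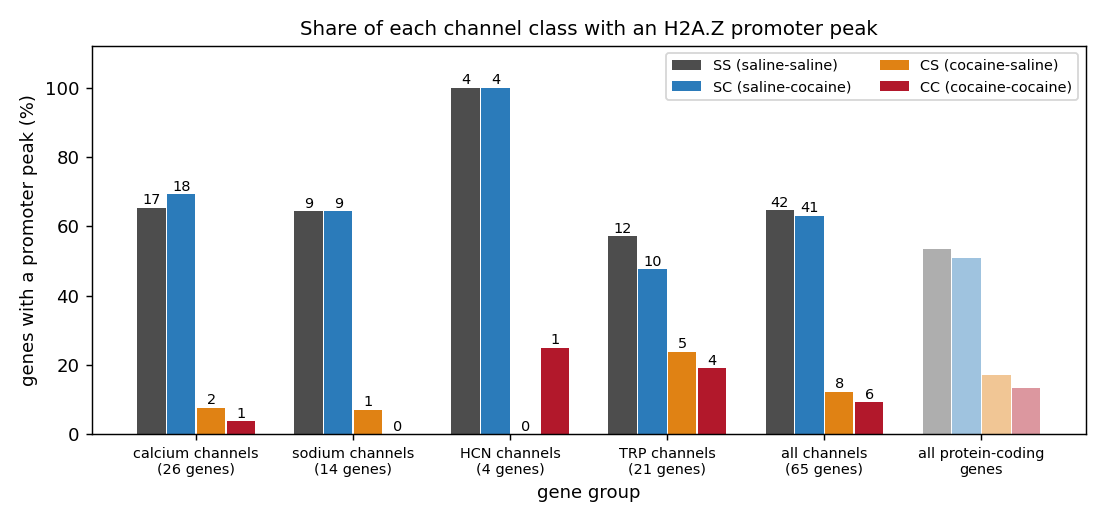
Percentage of genes with an H2A.Z promoter peak (y axis) by gene group (x axis), with 1 bar per list and the number of genes above each channel bar; pale bars show all protein-coding genes. All channels combined stand at 64.6% (SS), 63.1% (SC), 12.3% (CS) and 9.23% (CC), and no sodium channel gene has a CC bar.

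Within the SS list, channel promoters had a higher median strength than all promoter genes, with nearly the same quartiles. The authors' fold enrichment of the strongest promoter peak had a median of 7.04 over the 42 channel genes and of 5.65 over all 13585 SS promoter genes, with quartiles of 4.35 and 8.93 against 4.35 and 8.72. In SC the medians were 8.10 and 6.59, with quartiles of 4.12 and 11.1 against 4.66 and 10.9. In CS they were 4.85 over 8 channel genes and 4.68 over all CS promoter genes. In CC the channel genes were weaker, with a median of 4.03 over 6 genes against 4.85 over all CC promoter genes. The CC quartiles were 3.83 and 4.12 against 4.44 and 5.36. The SS promoter peaks of channel genes had a median width of 952 bp, against 960 bp for all SS promoter peaks. Of these, 32 of 53 had their middle within 100 bp of the start site (60.4%, against 46.8% of all SS promoter peaks). This was not so in SC, where 22 of 49 did (44.9%, against 46.3%). Fold enrichments rank peaks inside a list and cannot be compared in size from list to list.

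Among high-voltage calcium channel pores, SS values ranged from 3.33 to 8.57. Cacna1b (N-type) had a fold enrichment of 8.57 (chromosome 2, 24762459 to 24763675, mm10), Cacna1d (L-type) 8.38, Cacna1a (P/Q-type) 8.24 and Cacna1c (L-type) 6.06. Cacna1e (R-type) was the weakest of this class at 3.33, with a start site of its own for each of its 2 SS peaks, of which SC retained 1 (3.05). Of the T-type pores, which open near rest, Cacna1h had 7.36, Cacna1i 6.52 and Cacna1g 2.86. The retinal Cacna1f and the skeletal muscle Cacna1s had no promoter peak in any list. SC contained the same 8 pore genes, with values from 3.05 (Cacna1e) to 12.3 (Cacna1b).

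The auxiliary calcium channel subunits divided by family. All 4 beta genes had SS peaks: Cacnb4 10.3, Cacnb3 9.74, Cacnb1 8.14 and Cacnb2 4.42. Of the alpha2delta genes, Cacna2d2 had 9.31, Cacna2d3 7.14 and Cacna2d1, a target of gabapentin, 6.94. Of the 8 Cacng genes, which include AMPA receptor auxiliary subunits (TARPs), 2 had promoter peaks, Cacng4 (7.93) and Cacng3 (3.77). Cacng1, Cacng5, Cacng6, Cacng7 and Cacng8 had none in any list. Cacng2, which encodes stargazin, had none under its own name either, but a peak assigned to A730060N03Rik lay over its RefSeq start in SS (6.97, chromosome 15, 78119327 to 78120218) and in SC (8.83).

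Among sodium channel pores Scn8a, the pore of the axon initial segment and nodes, had 8.98 in SS (chromosome 15, 100870184 to 100871510). Lower values were found at Scn9a (4.73), Scn1a (4.35), Scn2a (3.71) and Scn3a (3.29), which lie together on chromosome 2. Scn4a, Scn7a, Scn10a and Scn11a, known mainly from muscle, glia and sensory neurons, had no promoter peak in any list. Of the beta subunits, Scn4b had 4.26 and Scn3b 4.02. Scn2b had no promoter peak, and its nearest SS peak lay at −1752 bp (4.11). In SC Scn8a had 10.3, Scn9a 5.49 and Scn1a 4.26.

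HCN genes had strong peaks: Hcn2 11.01, Hcn3 8.81 and Hcn4 8.20 in SS, and 11.2, 10.6 and 8.42 in SC. The SS median of the class, 9.49, was the highest of the 11 channel classes. TRP genes spanned the whole range. Trpc1 had the strongest channel promoter in SS (13.6, chromosome 9, 95749552 to 95750713, above 99.7% of SS peaks) and in SC (15.1), followed in SS by the osmosensitive Trpv4 (11.9). Trpc6 (4.92) and Trpc4 (3.50) were weaker. Of the TRPM genes, Trpm7, a channel fused to a kinase, had 7.61, the calcium-activated Trpm4 5.51, Trpm3 4.80, the oxidant-gated Trpm2 4.69, the magnesium channel Trpm6 4.37 and the cold sensor Trpm8 2.01, the lowest value of any channel gene. Trpv2 had 3.88. The heat and pain sensor Trpv1, the skin channel Trpv3, the epithelial Trpv5 and Trpv6, and Trpc2, Trpc5, Trpc7, Trpm1 and Trpm5 had no promoter peak in any list.

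**Figure D2:**
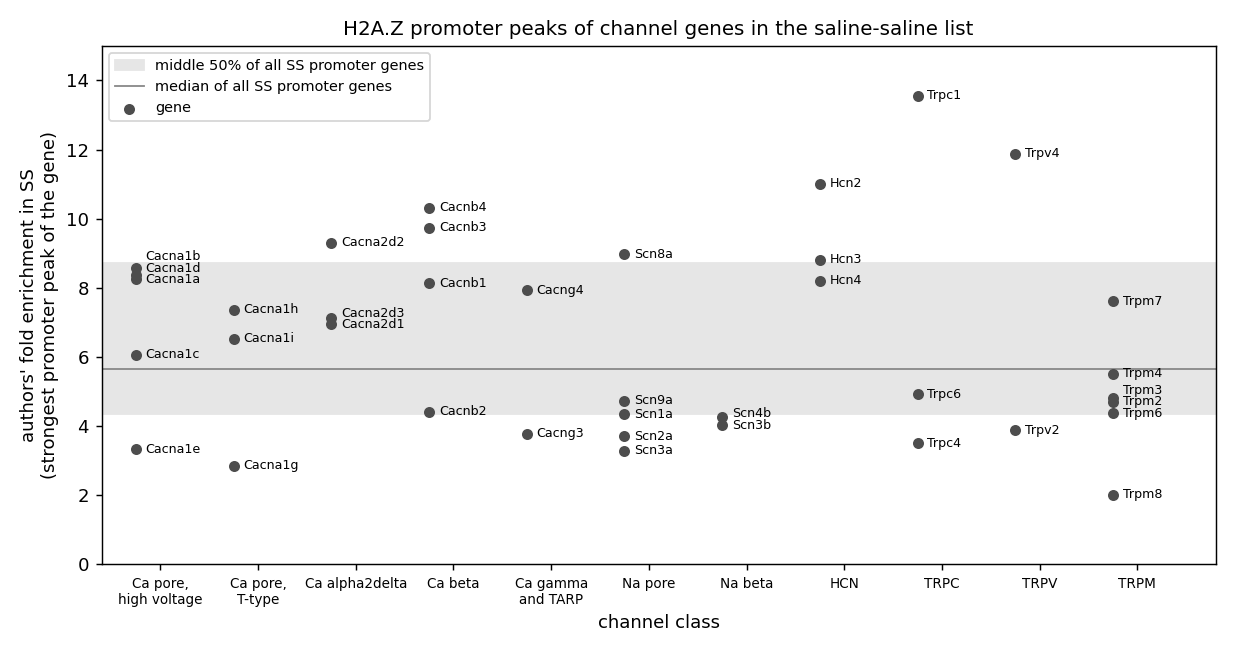
Authors' fold enrichment in the SS list (y axis) of the strongest promoter peak of 38 of the channel genes, 1 labelled point per gene, by channel class (x axis); the grey band is the middle 50% of all SS promoter genes and the line their median (5.65). Trpc1 (13.6) stands highest and Trpm8 (2.01) lowest, and the HCN genes drawn lie between 8.20 and 11.01.

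Start site sequence is shown for 5 genes picked, after their values were seen, to span strong, intermediate and weak SS peaks, from RefSeq windows on GRCm38.p6 (mm10) that run from 250 bases before to 50 after a start, 5′ to 3′ on the strand of the gene. Each CG dinucleotide, the site of DNA methylation, is in capitals. The first 3 had strong SS peaks, Trpm6 an intermediate one and Trpm8 the weakest.
Trpc1 (chr9:95750299-95750598, minus strand): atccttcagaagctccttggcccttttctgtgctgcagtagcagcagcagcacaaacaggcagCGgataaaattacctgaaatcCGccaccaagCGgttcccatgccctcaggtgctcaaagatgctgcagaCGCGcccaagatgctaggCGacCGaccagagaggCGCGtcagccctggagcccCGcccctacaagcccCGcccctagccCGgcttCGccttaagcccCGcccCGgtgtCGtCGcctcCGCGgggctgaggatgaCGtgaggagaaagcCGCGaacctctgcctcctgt
Hcn2 (chr10:79716384-79716683, plus strand): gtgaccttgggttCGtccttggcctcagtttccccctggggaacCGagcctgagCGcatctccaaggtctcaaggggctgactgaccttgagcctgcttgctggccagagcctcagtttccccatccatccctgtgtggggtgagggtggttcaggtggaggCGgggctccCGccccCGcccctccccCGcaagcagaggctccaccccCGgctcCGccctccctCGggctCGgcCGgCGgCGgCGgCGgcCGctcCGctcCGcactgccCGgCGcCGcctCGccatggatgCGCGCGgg
Cacnb4 (chr2:52676094-52676393, minus strand): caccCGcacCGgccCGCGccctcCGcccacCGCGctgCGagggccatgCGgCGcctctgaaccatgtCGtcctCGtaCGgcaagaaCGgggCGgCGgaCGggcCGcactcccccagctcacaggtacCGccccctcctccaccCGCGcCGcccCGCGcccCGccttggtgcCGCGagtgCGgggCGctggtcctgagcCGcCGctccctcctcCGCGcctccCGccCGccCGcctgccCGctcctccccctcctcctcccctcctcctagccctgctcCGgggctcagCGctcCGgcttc
Trpm6 (chr19:18749480-18749779, plus strand): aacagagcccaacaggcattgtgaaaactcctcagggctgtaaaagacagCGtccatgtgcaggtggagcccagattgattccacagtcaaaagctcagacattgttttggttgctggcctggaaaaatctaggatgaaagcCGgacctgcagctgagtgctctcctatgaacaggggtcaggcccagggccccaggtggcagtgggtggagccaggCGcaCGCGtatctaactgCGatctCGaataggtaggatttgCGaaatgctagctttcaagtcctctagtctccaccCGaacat
Trpm8 (chr1:88306485-88306784, plus strand): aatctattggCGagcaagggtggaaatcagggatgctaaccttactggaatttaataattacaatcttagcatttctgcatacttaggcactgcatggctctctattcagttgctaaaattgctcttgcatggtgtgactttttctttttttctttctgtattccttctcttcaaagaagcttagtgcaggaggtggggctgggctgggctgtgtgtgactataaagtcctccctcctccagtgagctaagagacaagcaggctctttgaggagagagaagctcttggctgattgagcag
The windows held 22 CG in Trpc1, 26 in Hcn2, 40 in Cacnb4, 9 in Trpm6 and 1 in Trpm8, against a median of 7 over all 32851 windows. At least 40 CG were found in 3.91% of windows, at least 26 in 16.9% and at least 22 in 23.1%. At least 9 were found in 45.8% and at least 1 in 94.6%. The letters GGGCGG, searched on both strands and containing a CG, occurred at 3 places in Trpc1, 3 in Hcn2, 6 in Cacnb4 and at none in Trpm6 or Trpm8 (35.7% of windows hold it). TATAAA occurred once in Trpm8 and in none of the other 4 (13.6% of windows). TGACG, the short cAMP response element, which also contains a CG, occurred at 2 places in Trpc1 and in none of the other 4 (20.8%), and TGANTCA, the AP-1 letters, in none of the 5 (7.81%). Windows were found for 51 of the 65 channel genes (78.5%), under the 80% required here, so a check of base composition over the whole set would be void and none is given.

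The comparison of SC with SS concerns a first cocaine exposure. Of the 42 channel genes of SS, 40 (95.2%, 95% exact binomial interval 83.8 to 99.4%) also had a promoter peak in SC, beside 88.2% of all SS promoter genes. The interval covers the counting of genes only. All 17 calcium, 9 sodium and 4 HCN genes of SS were found again, and 10 of 12 TRP genes. The 2 exceptions were Trpm6 (4.37 in SS, chromosome 19, 18749607 to 18750286) and Trpm8 (2.01 in SS, chromosome 1, 88306565 to 88307054), and no SC peak of any name overlapped either SS peak. The Trpm6 peak also lay near the start of Gm41814. In the other direction Cacna2d4 had a promoter peak in SC (3.44, chromosome 6, 119330209 to 119331473) and none in SS, but an SS peak assigned to the neighbouring Lrtm2 overlapped it. Of all SC promoter genes 7.42% had none in SS.

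At genes with several start sites, the 2 lists differed in finer detail. In SS 10 of 42 channel genes (23.8%) had more than 1 promoter peak, beside 11.7% of all SS promoter genes, and in SC 7 of 41 (17.1%, beside 11.9%). Cacna1a had 3 promoter peaks in both lists (2.57, 8.24 and 6.37 in SS and 2.62, 10.8 and 8.58 in SC). Cacnb4, Scn1a, Scn2a, Trpc4 and Trpm4 had 2 in both, Cacna1d, Cacna1e, Cacna2d2 and Cacnb2 had 2 in SS and 1 in SC, and Cacng3 had 1 in SS and 2 in SC. At Cacnb2 the stronger SS peak (4.42, chromosome 2, 14603729 to 14604937) was overlapped in SC by a peak assigned to Gm10849 (5.33). The SC peak that bears the name Cacnb2 (2.95, starting at 14874334) overlapped no SS peak, although an SS peak (3.58, 14873789 to 14874209) ended just before it. Cacnb2 was therefore found in both lists by name with its peaks at different sites.

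The comparisons of CS and CC with SS concern a cocaine history followed by saline or by cocaine. In CS 8 of the 42 SS channel genes had a promoter peak (19%, interval 8.60 to 34.1%), beside 28.8% of all SS promoter genes. In CC 6 did (14.3%, interval 5.43 to 28.5%), beside 22.7%. By gene name, no channel gene had a promoter peak in CS or CC without one in SS, beside 9.4% of all CS and 9.13% of all CC promoter genes. In all 11 SS channel genes were in CS or CC, beside 39.4% of SS promoter genes, and 3 were in both, beside 12.2%. Calcium, sodium and HCN genes combined were found again at 3 of 30 genes in CS (interval 2.11 to 26.5%). In CC they were found at 2 of 30 (interval 0.818 to 22.1%). TRP genes were found again at 5 of 12 in CS (interval 15.2 to 72.3%) and 4 of 12 in CC (interval 9.92 to 65.1%). Among them, TRPM genes were found at 4 of 6 and 3 of 6. The TRP counts go by name and include Trpm8, whose CS and CC peaks lay at another start site than its SS peak. The CS count also includes Trpc1, whose CS peak overlapped no SS peak. A total of 30 of the 42 genes had promoter peaks in SS and SC and in neither CS nor CC, beside 51% of all SS promoter genes. They included Hcn2, Hcn4, Scn8a, Cacna1b, Cacna1c, Cacna1d, Cacnb3 and Trpv4.

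**Figure D3:**
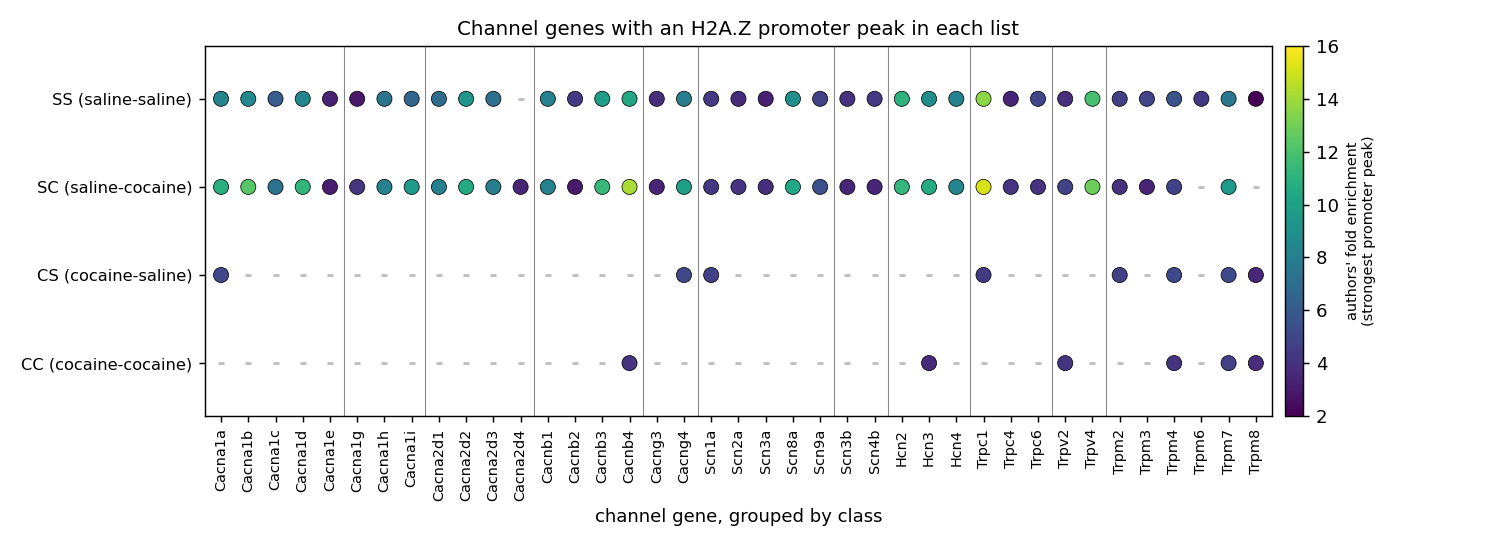
A total of 39 channel genes (x axis, grouped by class) in each list (y axis): a filled point marks a promoter peak, coloured by the authors' fold enrichment of its strongest one, and a dash marks none; colours should be read within a row. The SS and SC rows hold 38 and 37 filled points, and the CS and CC rows 8 and 6, of which 4 and 3 are TRPM genes.

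Channel genes found again in CS came from all 5 equal strength groups of SS promoter genes, with 1, 2, 1, 3 and 1 genes from weakest to strongest. In that order the groups held 9, 8, 3, 14 and 8 channel genes. Of all genes in the groups, 10.6%, 31.9%, 44.6%, 26.4% and 30.7% were found in CS. In CC the groups gave 2, 0, 1, 2 and 1 channel genes, beside 7.4%, 25.1%, 34.9%, 21.1% and 25% of all genes. Among the 14 channel genes in the fourth group (fold enrichment 6.56 to 9.32), 3 were found in CS (Cacna1a, Cacng4 and Trpm7), beside 26.4% of all genes of that group. Among the 8 in the strongest group, Trpc1 alone was found in CS (30.7% of all genes of the group) and Cacnb4 alone in CC (25%). Hcn2, Trpv4 and Cacnb3, all at 9.74 or above in SS, were in neither.

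In CS the channel promoter peaks were narrow. Trpm7 had 3 of them, 111, 167 and 108 bp wide, with fold enrichments of 5.15, 4.85 and 4.23, where SS had 1 peak of 1369 bp (chromosome 2, 126875622 to 126876991). Trpm4 had 1 of 204 bp (5.02, chromosome 7, 45333545 to 45333749) and Trpm2 1 of 69 bp (4.68, chromosome 10, 77970064 to 77970133). Cacna1a had 1 of 69 bp (5.02, chromosome 8, 84639774 to 84639843), at its downstream start site and not at the start with its strongest SS peak. Scn1a had 1 of 88 bp (4.67, chromosome 2, 66440141 to 66440229) at the start site that also carried its stronger SS peak. Cacng4 had 1 of 87 bp (5.01, chromosome 11, 107795083 to 107795170) across the upstream edge of its SS peak. The CS peak of Scn1a also lay near the start of Gm13629, and the SS and SC peaks of Cacng4 near that of Gm11650. Trpc1 had 1 of 69 bp (4.35, chromosome 9, 95750791 to 95750860) that overlapped no SS peak and lay 78 bp from the nearest.

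In CC, Trpm7 had 1 peak of 131 bp (4.69, 126876650 to 126876781) that overlapped the most upstream of its CS peaks. Trpm4 had 1 of 75 bp (3.99, 45333296 to 45333371) that did not overlap its CS peak. Cacnb4 had 1 of 140 bp (4.07) on the downstream edge of its SS peak, Hcn3 1 of 91 bp (3.67, chromosome 3, 89159933 to 89160024) at the start site, and Trpv2 1 of 124 bp (4.13, chromosome 11, 62575976 to 62576100) near the middle of an SS peak of 1637 bp. The q-values of these CC peaks were 0.00114 (Trpm7), 0.0280 (Trpm4), 0.0137 (Cacnb4), 0.0360 (Hcn3) and 0.0056 (Trpv2), where the highest of the CC list was 0.0625. Trpm4, Trpm7 and Trpm8 were the channel genes in both CS and CC. They made up 3 of 8 in CS (37.5%, beside 41.2% of all CS promoter genes that were also in CC) and 3 of 6 in CC (50%, beside 52.4% the other way).

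Trpm8 stood apart. Its CS and CC peaks were 516 and 998 bp wide (3.53, q-value 6.99e-09, and 3.78, q-value 6.55e-09) and lay at another start site than its SS peak, on a region where the promoter of Hjurp, a centromere histone chaperone gene, begins. There SS and SC carried broad peaks assigned to Hjurp (4.00, 1778 bp, and 4.47, 1433 bp), and CS and CC also had peaks of that name (4.58 and 2.83). All 4 lists thus had peaks at the Hjurp end, while the SS peak at the other Trpm8 start (2.01) was overlapped in no other list. Without Trpm8, CS held 7 SS channel genes and CC 5.

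**Figure D4:**
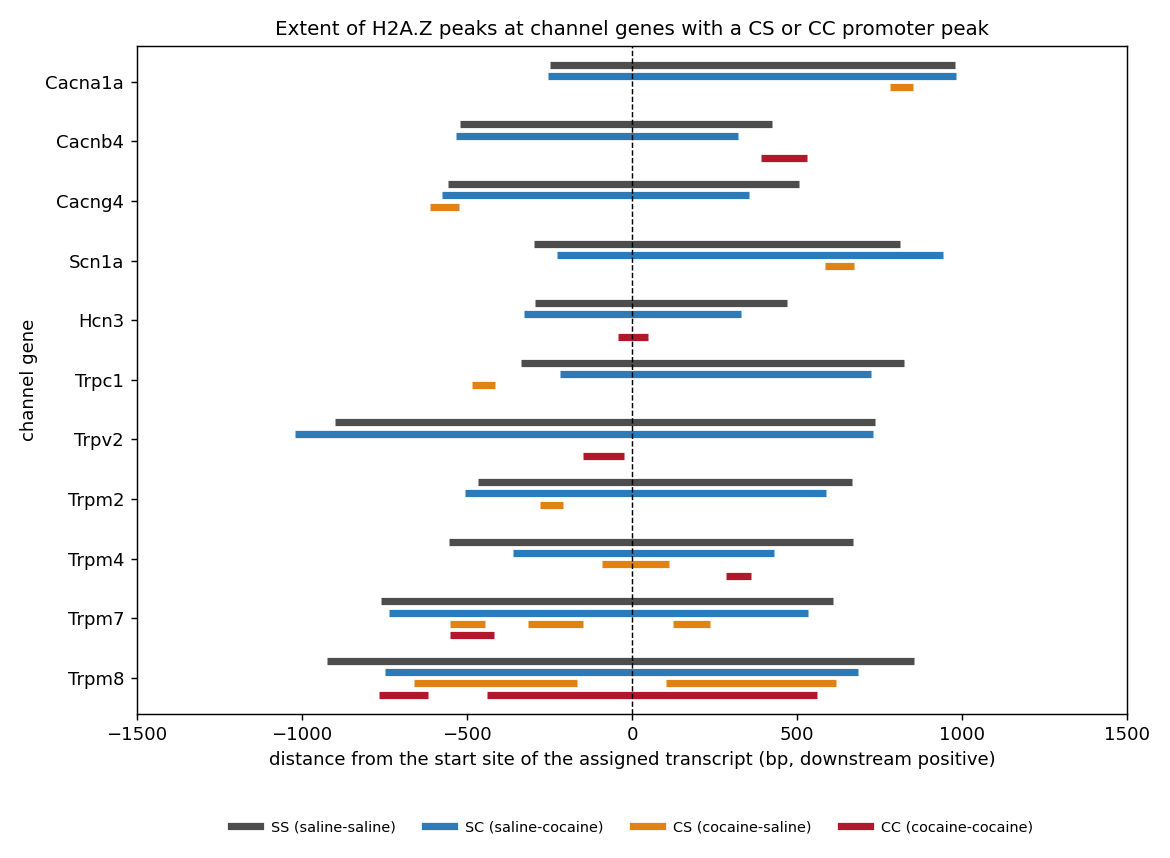
Extent of every H2A.Z peak (bars, coloured by list) around the start site to which the CS or CC peak of each of 11 channel genes was assigned; the x axis is distance from that start site in bp and the y axis the gene. CS and CC bars are short pieces on or beside the broad SS and SC bars except at Trpm8, where the broad bars are those of Hjurp.

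The position of the narrow peaks was described against the SS peak below them. Of the 10 CS promoter peaks of channel genes, 9 overlapped an SS peak (90%, against 97.1% of all CS promoter peaks). Of these 9, 5 had their middle in the outer 50% of the SS peak or past its edge (55.6%, against 39.8%). The middle lay past the edge at Cacng4. In CC all 6 overlapped an SS peak. Of these, 2 had their middle in its outer 50% or past its edge (33.3%, against 37.2%), the latter at Cacnb4. For Trpm8 the SS peak was that of Hjurp in both lists. The median distance of the peak middle from the start site was 405.5 bp in CS and 205 bp in CC, against 230 and 229 bp over all promoter peaks of those lists.

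Start site sequence of Trpm7 and Trpm2, whose RefSeq windows reach into a CS peak, is shown with the bases inside a CS peak in capitals. Whether the lists count starts from 0 or 1 is not stated, so the capitals may be off by 1 base.
Trpm7 (chr2:126876212-126876511, minus strand): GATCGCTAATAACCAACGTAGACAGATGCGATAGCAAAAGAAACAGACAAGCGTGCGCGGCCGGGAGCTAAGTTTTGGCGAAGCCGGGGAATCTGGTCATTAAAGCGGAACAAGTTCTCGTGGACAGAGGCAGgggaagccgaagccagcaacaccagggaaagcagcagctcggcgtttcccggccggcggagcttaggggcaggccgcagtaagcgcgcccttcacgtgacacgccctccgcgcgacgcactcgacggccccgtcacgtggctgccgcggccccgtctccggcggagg
Trpm2 (chr10:77969823-77970122, minus strand): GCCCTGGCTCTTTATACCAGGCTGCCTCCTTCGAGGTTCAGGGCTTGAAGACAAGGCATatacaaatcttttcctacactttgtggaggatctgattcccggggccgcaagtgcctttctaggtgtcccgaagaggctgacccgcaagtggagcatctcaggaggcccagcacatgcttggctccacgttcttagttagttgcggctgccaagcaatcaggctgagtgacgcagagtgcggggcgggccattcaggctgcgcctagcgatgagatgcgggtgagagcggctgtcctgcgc
In Trpm7 133 bases and in Trpm2 59 bases of the window were inside a CS peak, at the upstream end in both, with the bases around the start site outside it. The Trpm7 window held 35 CG and the Trpm2 window 15, counts reached by 6.95% and 34.6% of all windows.

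Beyond 1000 bp, channel genes had 33 further peaks at 19 genes in SS and 30 at 16 genes in SC, nearly all in gene bodies (31 and 26). Gene body peaks were found at 18 of 65 channel genes in SS (27.7%, beside 7.63% of all protein-coding genes) and at 13 in SC (20%, beside 8.33%). In CS and in CC 2 channel genes had one (3.08%), beside 0.936% and 0.63%. Gene length was not taken into account in these shares. The strongest was in Cacna1a, 143.6 kb downstream of its start (11.96 in SS, chromosome 8, 84559014 to 84559821, above 99.3% of SS gene body peaks, and 12.2 in SC). At Trpm3 a second start lay under a peak assigned to Gm27151 (3.39 in SS). Trpm3, a long gene, had 7 gene body peaks in SS and 7 in SC and none in CS or CC, with fold enrichments from 2.88 to 3.56 in SS and 3.41 to 4.17 in SC. Of the 33 SS peaks 19 were overlapped in SC (57.6%), 3 in CS (9.09%) and 2 in CC (6.06%), close to the shares over all 3957 SS peaks assigned to a gene beyond 1000 bp (58.2%, 8.26% and 6.27%). Trpc7, which had no promoter peak, had a gene body peak about 88 kb from its start in all 4 lists (4.78 in SS, chromosome 13, 56806491 to 56807417, 5.22 in SC, 5.69 in CS and 4.34 in CC), although its CS and CC peaks did not overlap. Gene body peaks were also found again at Scn8a in CS (4.35) and at Trpv3 in CC (4.83). The peaks nearest the 1000 bp limit were that of Cacna1a in CS at 817 bp inside it and one of Cacng4 in SC at 1374 bp outside it.

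Partners of these channels were examined from a list of 56 genes. SS had promoter peaks at 47 of them (83.9%, beside 53.4% of protein-coding genes) and SC at 43 (76.8%, beside 50.9%), CS at 11 (19.6%, beside 17.2%) and CC at 8 (14.3%, beside 13.5%). Of the 47 SS genes SC shared 42 (89.4%, beside 88.2% of SS promoter genes), CS 11 (23.4%, beside 28.8%) and CC 8 (17%, beside 22.7%), so the shares found again were near the background. The list of calcium stores and store entry had promoter peaks at 11 of 11 genes in SS and 10 in SC, at 4 in CS and 2 in CC. Stim1, a calcium sensor of the endoplasmic reticulum, had peaks in all 4 lists (SS 9.79, SC 12.9, CS 4.12, CC 5.09), and the pore genes Orai1 (9.86 in SS, 5.06 in CS) and Orai2 (5.65 and 4.26) had them in CS and not in CC. The related Stim2 (8.57 in SS) and Orai3 (3.77 in SS) were in neither CS nor CC. The ryanodine receptor gene Ryr2 (10.99 in SS, 4.42 in CS) was in CS and the inositol trisphosphate receptor gene Itpr2 (6.01 in SS, 4.00 in CC) in CC. The sodium leak channel gene Nalcn (4.70 in SS) was in CS (5.11) and CC (4.75), its subunit Unc80 (11.4 in SS) in CS (4.12) and its subunit Unc79 in CC (4.53). The lysosomal TRP relative Mcoln1 (12.1 in SS, 5.02 in CS, 4.71 in CC) and the polycystin gene Pkd2 (9.53, 5.14 and 6.19) were in all 4 lists. Also found again were Rims2, Ank2 and the HCN3 partner Kctd3 (12.4 in SS) in CS, and Gem and Cabp1 in CC. Stac, which binds calcium channels, was the strongest calcium channel partner in SS (11.8) and was in neither. Of 10 calcium-dependent enzymes 7 had a promoter peak in SS, led by Camkk2 (10.3), and none of these 7 had one in CS or CC, a number too small to set against the 28.8% and 22.7% of all SS promoter genes.

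Potassium channels and ionotropic receptors were counted in the same way. Of all SS promoter genes, 88.2% recurred in SC, 28.8% in CS and 22.7% in CC. SS had promoter peaks at 71 potassium channel genes, of which 61 recurred in SC (85.9%), 9 in CS (12.7%, interval 5.96 to 22.7%) and 6 in CC (8.45%, interval 3.16 to 17.5%). Of 27 glutamate and GABA-A receptor genes of SS, 25 recurred in SC (92.6%), 3 in CS (11.1%, interval 2.35 to 29.2%) and 1 in CC (3.7%, interval 0.0937 to 18.97%). These intervals overlap those of the calcium, sodium, HCN and TRP genes. They cover the counting of genes only, so their overlap does not show that the groups are alike, and the differences were not tested.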

How the data were processed

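H2A.Z chromatin immunoprecipitation and sequencing was done on nucleus accumbens in 12 samples, 3 per condition. The authors deposited 1 annotated peak list per condition, giving for each peak its fold enrichment, a ratio, and its q-value, per the file headers. Per the submitters' processing notes, MACS2, SAMtools, HISAT and cutadapt were used with mm10. Versions, calling thresholds and the input control are not stated in those notes. The authors assigned each peak to 1 gene with a signed distance to its start site.

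The channel genes and all comparison lists were chosen with earlier results of these data known. Members were matched by symbol and a peak counted as a promoter peak when its distance was at most 1000 bp. Named genes are those with a promoter peak in CS or CC, those in SS or SC only, the extremes of each class, those with several promoter peaks, and those nearest the distance limit; the rest are given by value or as having none. Partner genes are named when found in CS or CC, or as the strongest of their group. Counts were made with Python 3.11.15, pandas 2.3.3 and scipy 1.17.1, and the overlap functions were tested on simulated peak lists. Overlap means at least 1 bp. Alternatives were other distances, −log10 q of at least 5, lists of equal length, overlap in place of a shared gene name, and leaving out genes with shared start regions. Promoter windows are from RefSeq, GRCm38.p6. Precision is limited by the absence of values per sample. No column held samples outside the series. Some genes are counted in the totals but not reported here by name or drawn in the plots of single genes.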

Additional observations from a re-analysis of the deposited data

How the results depend on the processing

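When peaks had to reach a −log10 q of 5, CS held 1 SS channel gene in place of 8 and CC 1 in place of 6 (Trpm8 in both), so the TRP count was 1 in each and the calcium (CS and CC), sodium (CS) and HCN (CC) counts were 0, while all genes held fell to 4.37% and 3.57%; SS and SC counts did not change by over 1.5 times. With all lists shortened to the 4827 peaks of highest fold enrichment, channel genes numbered 18 in SS and 17 in SC. These included 8 calcium, 3 sodium and 3 TRP genes in each, against 4 TRP in CS and 4 in CC. Of the SS genes 16 were held in SC, 3 in CS and 2 in CC (86.4%, 22.1% and 23.1% over all genes). At this length 4 genes in CS and 4 in CC were not in SS, and the share over all genes was not computed. By name, all of them had a promoter peak in the full SS list. The shortening cut that list from 13585 to 4463 promoter genes. Within 500 bp, CS held 5 genes (11.9%, beside 27.1% over all genes), with 0 calcium and 0 sodium. Within 3000 bp, 2 SC genes were not in SS. Held by overlap of 50% of the shorter peak, CS kept 5. Without the 6 genes whose promoter peak lies near another gene's start, an alternative chosen after seeing the data, CS had 5 channel genes (1 calcium, 0 sodium), all 5 of them in SS, and 0 SC genes were not in SS. No paired analysis was possible because the lists hold no values per sample, and leaving out a sample was not possible for the same reason. The cause of these changes was not tested.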
